A study of Arabidopsis thaliana with 18 samples.

Results

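Transcripts of 10 nitrate genes of Arabidopsis thaliana were followed in dry seeds and in seeds imbibed for 6 h, among 32833 genes in the deposited count table. The genes were chosen by locus as a fixed list: the transporter genes NRT1.1 (AT1G12110), NRT2.1 (AT1G08090), NRT2.6 (AT3G45060) and NRT2.7 (AT5G14570), the reductase genes NIA1 (AT1G77760), NIA2 (AT1G37130) and NIR1 (AT2G15620), and the transcription factor genes NLP6 (AT1G64530), NLP7 (AT4G24020) and NLP8 (AT2G43500). Of these, 9 passed the low-count filter and were tested. NRT2.1 did not, with 0 to 4 counts in each library. The list was chosen with earlier results of these data known, so counts of members beside those of all genes are a description.

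Nitrate is a nitrogen source and also a signal that releases seeds from dormancy. NRT1.1 carries nitrate across the plasma membrane and senses it, NRT2.1 is a high-affinity uptake transporter of roots, and NRT2.7 loads nitrate into the vacuole of seeds. Nitrate reductase, encoded by NIA1 and NIA2, reduces nitrate to nitrite in the cytosol, and nitrite reductase, encoded by NIR1, reduces nitrite to ammonium in plastids. NIN-like proteins (NLPs) are RWP-RK transcription factors that activate nitrate-responsive genes: NLP7 binds nitrate, and NLP8 is required for nitrate-promoted germination and binds the promoter of CYP707A2, which encodes an enzyme that breaks down abscisic acid.

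Freshly harvested seeds of 3 genotypes were sequenced, all in the Col-0 ecotype: the wild type, mkk3-1 (labelled a knock-out of the MAP kinase kinase gene MKK3) and mpk7_ko3 (labelled a knock-out of the MAP kinase gene MPK7). Seeds of each genotype were taken dry or after 6 h on wet filter paper, with 3 libraries in each of the 6 groups. MKK3 acts upstream of MPK7, and the series set mutants against the wild type in both seed states. How each allele was made and whether replicates came from separate plants are not given in the sources used here, so p-values measure the spread between these libraries, which may be technical.

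Library totals were 18249333 to 21036275 counts. Replicates varied with a common biological coefficient of variation of 0.104. The component with the largest share of variance (78.9%) separated imbibed from dry libraries. Replicate 3 of mpk7_ko3 stood apart from the other mpk7_ko3 libraries on the next component (3.95%), at -16.8 against 34.7 and 36.8 when dry and at -11.6 against 13.4 and 18.5 when imbibed. MPK7 was lower in mpk7_ko3 than in Col-0 in both states (log2 fold change -1.49 when dry and -1.45 when imbibed). MKK3 was at 7.36 CPM (the count relative to the library total, scaled by TMM factors) in dry mkk3-1 against 17.4 in dry Col-0. In imbibed seeds it was at 11.8 against 13.3 CPM (edgeR adjusted p = 0.307), so the MKK3 transcript did not set the imbibed libraries labelled mkk3-1 apart from Col-0. Of the marker lists, 6 seed storage and oil genes summed to 53018 to 84684 CPM in dry and 31702 to 49805 CPM in imbibed libraries, and 5 seed coat markers to 3.45 to 7.24 CPM.

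The 4 members called in imbibed mkk3-1 against Col-0 lie, in the TAIR10 coordinates of the count table, at chr3:16477561-16479559 on the - strand (NRT2.6), chr1:29235721-29239484 on the - strand (NIA1), chr2:6810395-6812941 on the + strand (NIR1) and chr4:12479528-12484049 on the + strand (NLP7). No annotated gene overlaps any of the 10 members. Sequences were read at these coordinates from the TAIR10.1 assembly of RefSeq, because nitrate-regulated genes carry known elements near their start. The nitrate-responsive element bound by NLPs was searched by its core, the letters GAC, any base, CTT, 10 bases of any kind and AAG, on both strands in the 1000 bases before the start codon. Among the 10 genes the core was present in NIR1. In the 250 bases before the annotated start, 0 of the 10 held it, also with 50 bases after the start included. The element was known beforehand from nitrate-regulated genes, so the NIR1 match is a description and not an independent find. It lies at chr2:6810459-6810478 on the + strand, 93 to 74 bases before the start codon and within the annotated 5′ UTR, and is shown with the fixed letters of the core in capitals.
NIR1 nitrate-responsive element: GACcCTTtacattgctcAAG

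This core occurs within 1000 bases before the start codon of 151 of 27443 genes (0.550%), and within 250 bases of 50 genes (0.182%). The abscisic acid response element core ACGTG, searched on both strands, occurs in the 250 bases before the annotated start of NRT2.6, NIA2 and NLP7, and of 21.8% of all 32546 promoters read. With 50 bases after the start included, the same 3 genes and 25.8% of promoters held it. The 250 bases before the start are shown for NIA1 (chr1:29239485-29239734, - strand), NIR1 (chr2:6810145-6810394, + strand) and NRT2.6 (chr3:16479560-16479809, - strand), the members past the threshold with the largest differences between imbibed mkk3-1 and Col-0 seeds. Capitals mark the abscisic acid core, which in NRT2.6 is read on the opposite strand.
NIA1 promoter: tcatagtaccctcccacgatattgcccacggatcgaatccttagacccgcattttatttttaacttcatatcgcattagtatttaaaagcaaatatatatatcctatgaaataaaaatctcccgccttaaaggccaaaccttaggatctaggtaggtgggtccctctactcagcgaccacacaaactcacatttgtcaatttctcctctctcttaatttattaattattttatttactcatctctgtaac
NIR1 promoter: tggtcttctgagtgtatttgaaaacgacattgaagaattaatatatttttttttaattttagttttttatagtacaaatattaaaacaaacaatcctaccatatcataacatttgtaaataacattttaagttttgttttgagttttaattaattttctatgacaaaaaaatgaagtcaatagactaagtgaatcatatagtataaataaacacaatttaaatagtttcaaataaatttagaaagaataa
NRT2.6 promoter: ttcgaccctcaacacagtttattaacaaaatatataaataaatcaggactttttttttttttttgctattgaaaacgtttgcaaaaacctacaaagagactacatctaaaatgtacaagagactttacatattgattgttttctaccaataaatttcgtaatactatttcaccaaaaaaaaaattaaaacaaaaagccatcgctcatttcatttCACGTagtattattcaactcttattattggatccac

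In dry Col-0 seeds the vacuolar transporter gene NRT2.7 was the most abundant of the 10, at 143 ± 3.77 CPM per kb of transcript (SD, n = 3). NIR1 followed at 93.0 ± 4.82 and NLP8 at 64.6 ± 6.86 CPM per kb. NLP7 (23.4), NIA1 (20.3) and NRT1.1 (8.19) came next, and library values of neighbours down to NRT1.1 did not overlap in this order. NLP6 (1.67), NRT2.6 (1.65) and NIA2 (1.12) overlapped in their library values, and NRT2.1 was at 0.0101 CPM per kb. The order of group means was the same in dry mkk3-1 and mpk7_ko3. In dry mpk7_ko3 the libraries of NRT2.7, NIR1 and NLP8 overlapped with their neighbours, and those of NLP7 with NIA1.

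After 6 h of imbibition the order in Col-0 had changed. NLP8 (53.6 ± 2.23), NIA1 (51.9 ± 5.23) and NRT2.7 (47.9 ± 5.08 CPM per kb) were highest with overlapping libraries. NRT1.1 stood at 39.3 ± 3.90, above NIR1 at 23.1 ± 4.47 CPM per kb. In imbibed mkk3-1, NIA1 alone ranked highest, at 83.0 ± 11.4 CPM per kb, and NIR1 (44.5 ± 0.779) ranked above NRT1.1 (35.9 ± 1.18) with no overlap. In imbibed mpk7_ko3 the order was that of Col-0. Reads that match several genes could be split between paralogs, NIA1 and NIA2 or NRT2.1 and its neighbour NRT2.2, and how the authors treated them is not given in the sources used here.

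**Figure D1:**
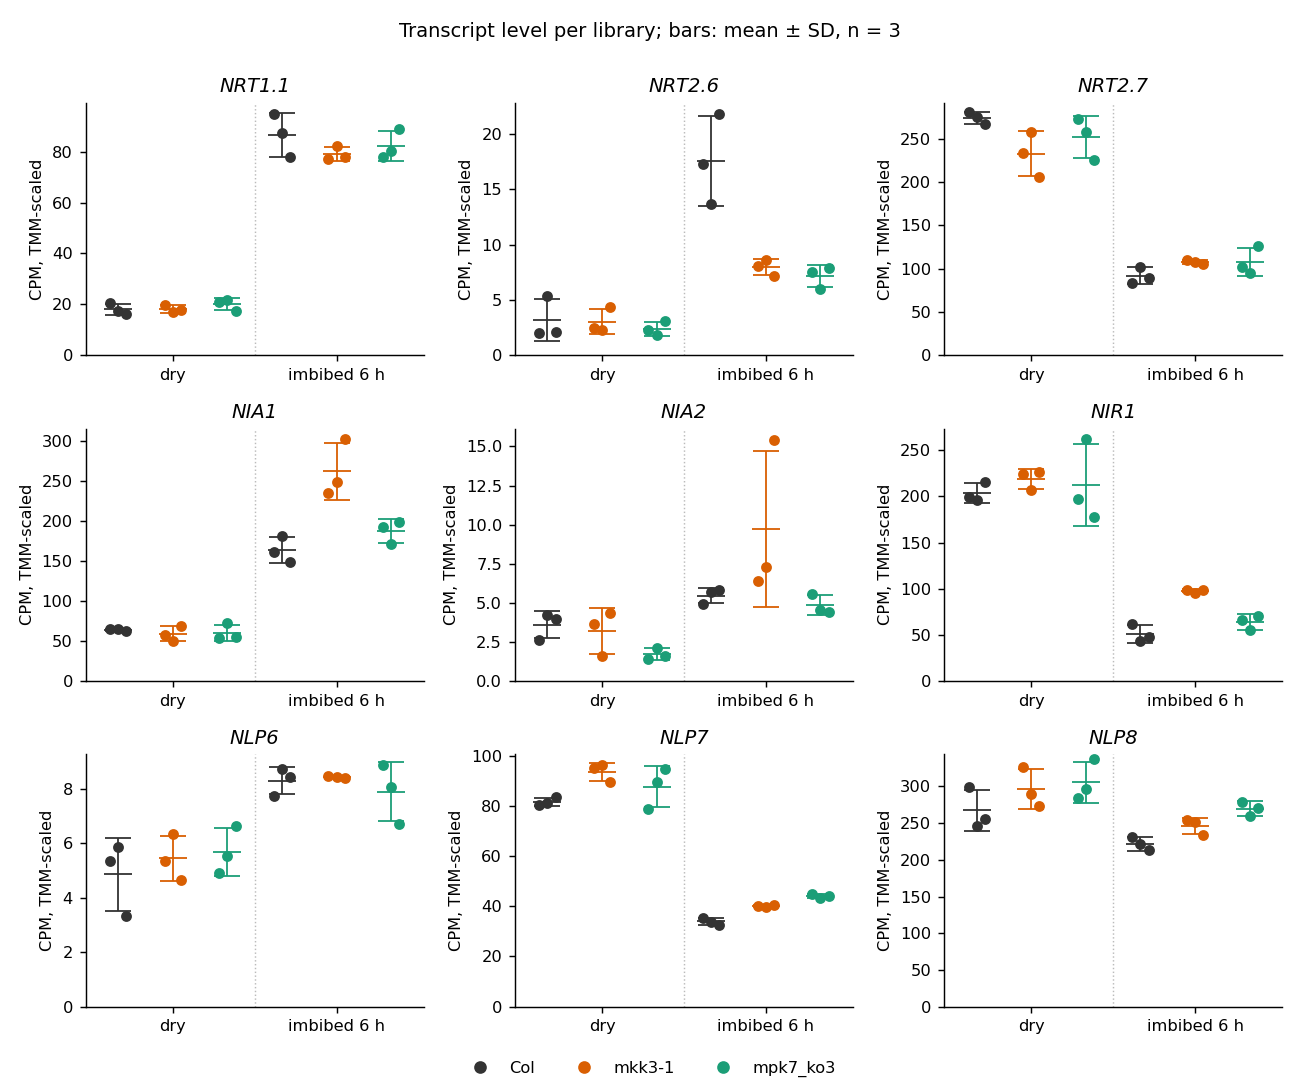
Transcript level (y axis, CPM scaled by TMM factors) of the 9 tested genes in dry seeds and in seeds imbibed for 6 h (x axis); points are libraries, horizontal bars the mean and error bars the SD (n = 3), coloured by genotype. NRT1.1, NRT2.6 and NIA1 sit higher after imbibition, NRT2.7, NIR1 and NLP7 lower, and imbibed mkk3-1 stands above Col-0 for NIA1 and NIR1.

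Imbibition moved nitrate genes in both directions, as it did tested genes in general. In Col-0, NRT1.1, NRT2.6, NIA1 and NLP6 rose and NRT2.7, NIR1, NLP7 and NLP8 fell, which makes 8 of 9 tested members past an adjusted p of 0.05 (edgeR quasi-likelihood test, Benjamini-Hochberg adjustment over 17758 genes). These were 4 up and 4 down. Of all tested genes 74.9% passed in this comparison, 38.8% up and 36.1% down. In mkk3-1 all 9 tested members passed, 5 up and 4 down (73.3% of all genes, 37.5% up and 35.8% down), and in mpk7_ko3 8 passed, 5 up and 3 down (72.5% of all genes, 37.6% up and 34.9% down). Library values of dry and imbibed seeds did not overlap for any of the 9 genes in each genotype, as for 78.7%, 76.6% and 72.0% of all genes in Col-0, mkk3-1 and mpk7_ko3.

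The scale of this comparison matters. With library totals in place of TMM factors, the median log2 change of all genes in Col-0 went from 0.064 to 0.66, and the share of called genes that were higher from 51.8% to 75.9%. The members then split 6 up and 3 down in each genotype. NLP8 turned from lower to higher (0.33 in Col-0, 0.29 in mkk3-1 and 0.37 in mpk7_ko3), and the other 8 tested members kept their direction. In a bulk seed sample, fewer cells of a type and less RNA per cell cannot be told apart.

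Among the transporters, NRT1.1 and NRT2.7 moved in opposite directions. NRT1.1 was at 20.3, 17.5 and 16.2 CPM in the 3 dry Col-0 libraries and at 94.9, 87.2 and 77.8 CPM in the imbibed ones. Every imbibed library was above every dry library, in the mutants as in Col-0. The log2 fold change was 2.27 ± 0.100 (SE) in Col-0, 2.12 ± 0.0996 in mkk3-1 and 2.04 ± 0.0994 in mpk7_ko3 (edgeR adjusted p = 3.64e-14, 1.10e-13 and 1.85e-13).

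NRT2.7, the seed vacuole transporter gene, was at 281, 276 and 267 CPM in dry Col-0 and at 83.4, 102.5 and 89.5 CPM after imbibition. It was at 233, 259 and 207 CPM in dry mkk3-1 and at 110.1, 108 and 105 CPM in imbibed mkk3-1. In mpk7_ko3 the levels were 273, 258 and 226 CPM when dry and 102, 95.3 and 126 CPM when imbibed. The dry libraries of each genotype were thus all above its imbibed ones, with log2 fold changes of -1.58 ± 0.105 in Col-0, -1.11 ± 0.104 in mkk3-1 and -1.23 ± 0.104 in mpk7_ko3 (edgeR adjusted p = 1.86e-11, 4.73e-09 and 1.06e-09). The ratio of NRT2.7 to NRT1.1 transcripts, per kb and within a library, so that the scaling of libraries does not enter, went from 17.6 ± 1.58 to 1.23 ± 0.189 in Col-0. It went from 14.8 ± 2.45 to 1.57 ± 0.0644 in mkk3-1 and from 14.5 ± 0.784 to 1.5 ± 0.134 in mpk7_ko3.

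NRT2.6, a member of the high-affinity transporter family, was scarce in dry seeds. Dry Col-0 libraries held 1.99, 5.34 and 2.12 CPM, dry mkk3-1 2.47, 2.28 and 4.31 CPM, and dry mpk7_ko3 2.28, 1.8 and 3.05 CPM. Imbibed Col-0 libraries held 17.3, 13.7 and 21.8 CPM, imbibed mkk3-1 8.10, 8.60 and 7.18 CPM, and imbibed mpk7_ko3 7.56, 6.01 and 7.86 CPM. The gene was higher after imbibition in each genotype, and the lowest imbibed Col-0 library was above every mutant library. The log2 fold change with imbibition was 2.46 ± 0.281 in Col-0, 1.39 ± 0.288 in mkk3-1 and 1.58 ± 0.304 in mpk7_ko3 (edgeR adjusted p = 9.64e-08, 0.000205 and 9.44e-05).

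NRT2.1 was barely detectable. Its counts in replicates 1 to 3 were 0, 0 and 1 in dry Col-0, 1, 0 and 0 in dry mkk3-1 and 0, 0 and 1 in dry mpk7_ko3. Imbibed libraries held 2, 1 and 0 counts in Col-0, 4, 3 and 1 in mkk3-1 and 0, 0 and 0 in mpk7_ko3. A difference between groups was not detectable at this depth.

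The reductase genes also moved in opposite directions, nitrate reductase up and nitrite reductase down. NIA1 was at 64.5, 65.2 and 62.6 CPM in dry Col-0, 57.5, 50.4 and 69.3 CPM in dry mkk3-1 and 53.5, 71.8 and 55.4 CPM in dry mpk7_ko3. After imbibition it was at 162, 181 and 148 CPM in Col-0, 235, 248 and 303 CPM in mkk3-1 and 192, 171 and 199 CPM in mpk7_ko3. The dry ranges of the genotypes overlapped, and the imbibed mkk3-1 libraries stood above all other libraries. The log2 fold change was 1.35 ± 0.122 in Col-0, 2.15 ± 0.124 in mkk3-1 and 1.64 ± 0.123 in mpk7_ko3 (edgeR adjusted p = 2.58e-09, 2.59e-12 and 1.63e-10).

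NIA2, the other nitrate reductase gene, stayed far below NIA1. It was at 2.6, 4.21 and 3.98 CPM in dry Col-0 and at 4.90, 5.68 and 5.79 CPM in imbibed Col-0, a log2 fold change of 0.59 ± 0.318 (edgeR adjusted p = 0.0965). In mkk3-1 it went from 3.62, 1.58 and 4.37 CPM to 6.42, 7.30 and 15.4 CPM. In mpk7_ko3 it went from 1.38, 2.13 and 1.61 CPM to 5.57, 4.56 and 4.43 CPM. Imbibed replicate 3 of mkk3-1 was the highest NIA2 library, and the rise passed the test in mkk3-1 (1.59 ± 0.312, edgeR adjusted p = 0.000114) and in mpk7_ko3 (1.5 ± 0.355, edgeR adjusted p = 0.000753). In Col-0 the change passed with library totals (1.18, edgeR adjusted p = 0.00258), with upper-quartile factors (0.0394), without the low-count filter (0.0430) and in a fit of the Col-0 libraries alone (0.0167). Per kb, NIA1 transcripts outnumbered those of NIA2 by 19.0 ± 5.37 to 1 in dry Col-0 and 30.7 ± 4.06 to 1 in imbibed Col-0. Means of the other groups lay between 21.5 and 39.6 to 1.

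NIR1 was at 199, 196 and 216 CPM in dry Col-0, 225, 207 and 226 CPM in dry mkk3-1 and 198, 262 and 177 CPM in dry mpk7_ko3. After imbibition it was at 61.8, 43.1 and 47.3 CPM in Col-0, 98.2, 95.7 and 98.9 CPM in mkk3-1 and 66.1, 54.8 and 70.7 CPM in mpk7_ko3. Dry libraries were above imbibed ones throughout, and imbibed mkk3-1 libraries were above the other imbibed libraries. The log2 fold change was -2.01 ± 0.132 in Col-0, -1.17 ± 0.128 in mkk3-1 and -1.73 ± 0.131 in mpk7_ko3 (edgeR adjusted p = 1.67e-11, 5.67e-08 and 1.66e-10).

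The balance of the reductase transcripts turned over with imbibition in each genotype. Per kb and within a library, NIR1 transcripts stood at 4.28, 4.07 and 4.67 times the sum of NIA1 and NIA2 in dry Col-0 and at 0.534, 0.332 and 0.442 times in imbibed Col-0. Means were 5.14 ± 0.659 and 0.524 ± 0.0706 in dry and imbibed mkk3-1, and 4.92 ± 0.389 and 0.477 ± 0.0262 in dry and imbibed mpk7_ko3. No dry library overlapped with an imbibed library, and the imbibed ranges of the 3 genotypes overlapped. NIA1 and NIR1 were both higher in imbibed mkk3-1 than in Col-0, and the ratio there was 0.586, 0.539 and 0.448 in the 3 libraries.

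**Figure D2:**
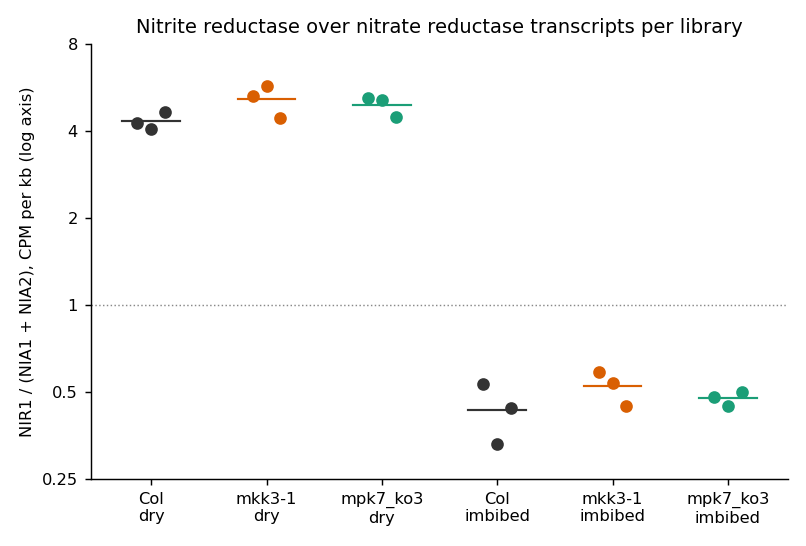
Ratio of NIR1 to the sum of NIA1 and NIA2 transcripts (y axis, log scale, from CPM per kb) in each library of the 6 groups (x axis); points are libraries and lines group means (n = 3). Dry libraries lie between 4.07 and 5.72 and imbibed libraries between 0.332 and 0.586, with no overlap between the seed states.

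Of the transcription factor genes, NLP7 fell, NLP6 rose and NLP8 moved least. NLP7 was at 80.4, 81.0 and 83.5 CPM in dry Col-0, 95.1, 96.2 and 89.5 CPM in dry mkk3-1 and 78.9, 89.3 and 94.7 CPM in dry mpk7_ko3. After imbibition it was at 35.5, 33.8 and 32.6 CPM in Col-0, 40.0, 39.8 and 40.7 CPM in mkk3-1 and 44.8, 43.1 and 44.1 CPM in mpk7_ko3. Imbibed libraries were all lower than dry ones, and the imbibed genotypes did not overlap, with Col-0 lowest and mpk7_ko3 highest. The log2 fold change with imbibition was -1.27 ± 0.0681 in Col-0, -1.22 ± 0.0673 in mkk3-1 and -0.99 ± 0.0671 in mpk7_ko3 (edgeR adjusted p = 6.92e-13, 1.20e-12 and 2.95e-11).

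NLP8, the NLP of nitrate-promoted germination, was at 299.7, 247 and 256 CPM in dry Col-0 and at 231, 222 and 213 CPM in imbibed Col-0. Dry mkk3-1 held 327, 289 and 273 CPM and imbibed mkk3-1 254, 252 and 234 CPM. Dry mpk7_ko3 held 284, 297 and 337 CPM and imbibed mpk7_ko3 279, 259 and 271 CPM. The fall was small, with log2 fold changes of -0.27 ± 0.0874 in Col-0 (edgeR adjusted p = 0.00918), -0.27 ± 0.0872 in mkk3-1 (0.00972) and -0.18 ± 0.0872 in mpk7_ko3 (0.0688), and its sign depended on the scaling as given above. The fall was also not past the threshold with upper-quartile factors (edgeR adjusted p = 0.260 in Col-0 and 0.255 in mkk3-1), without replicate 1 of dry Col-0 (0.0515) or without replicate 1 of dry mkk3-1 (0.0650). In mpk7_ko3 the fall passed with DESeq2 (adjusted p = 0.0194), with its size factors in edgeR (0.0331) and without dry replicate 1 (0.0299). NLP8 to NLP7 ratios per kb, which do not depend on the scaling, went from 2.76 ± 0.328 to 5.50 ± 0.0172 in Col-0, from 2.66 ± 0.20 to 5.17 ± 0.286 in mkk3-1 and from 2.94 ± 0.127 to 5.16 ± 0.0938 in mpk7_ko3.

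NLP6, a close relative of NLP7, was scarce, at 3.34 to 6.64 CPM in dry and 6.72 to 8.87 CPM in imbibed libraries. It rose by a log2 of 0.77 ± 0.177 in Col-0, 0.63 ± 0.173 in mkk3-1 and 0.47 ± 0.174 in mpk7_ko3 (edgeR adjusted p = 0.000542, 0.00269 and 0.0212). The mpk7_ko3 call was lost without any of 3 libraries: the edgeR adjusted p was 0.101 without dry replicate 1, 0.0589 without dry replicate 2 and 0.0932 without imbibed replicate 1.

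**Figure D3:**
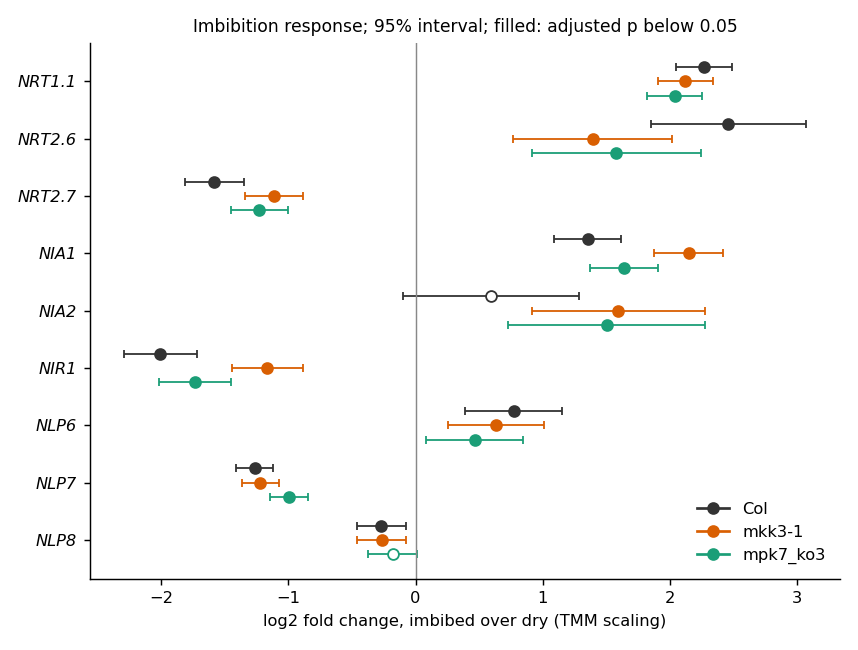
Log2 fold change of imbibed over dry seeds with TMM scaling (x axis) for the 9 tested genes (y axis) in each genotype; bars are 95% intervals from the standard error with 12 degrees of freedom, and filled points have an edgeR adjusted p below 0.05. NRT1.1, NRT2.6, NIA1 and NLP6 lie to the right and NRT2.7, NIR1 and NLP7 to the left in each genotype, while NLP8 lies just left of 0 and turns positive with library totals.

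In dry seeds no member passed the edgeR test between a mutant and Col-0. For mkk3-1, edgeR called 0 of 9 members (2.08% of all genes), 2 had an unadjusted p below 0.05, and DESeq2 called 0. These were NRT2.7 (-0.24 ± 0.102) and NLP7 (0.20 ± 0.0662), and their libraries did not overlap between the genotypes, as for 18.4% of all genes. For mpk7_ko3, edgeR called 0 of 9 members (2.76% of all genes), 2 had an unadjusted p below 0.05, and DESeq2 called 1. The gene called by DESeq2 was NIA2, at 1.38 to 2.13 CPM in mpk7_ko3 and 2.6 to 4.21 CPM in Col-0, with a log2 fold change of -1.08 ± 0.376 (edgeR adjusted p = 0.136, 0.0416 without the low-count filter and 0.0484 by DESeq2). Its libraries did not overlap, as for 17.8% of all genes. The other gene with an unadjusted p below 0.05 was NLP8 (0.19 ± 0.0874). NRT1.1, NIA1 and NIR1 had intervals of their log2 fold change within -0.39 and 0.38 in both mutants.

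In imbibed seeds of the libraries labelled mkk3-1, NIR1 and NIA1 transcripts were higher than in Col-0 and those of NRT2.6 were lower. NIR1 was higher by a log2 of 0.94 ± 0.130 (1.92-fold, edgeR adjusted p = 0.000101) and NIA1 by 0.68 ± 0.118 (1.6-fold, edgeR adjusted p = 0.00105). NLP7 was higher by 0.24 ± 0.0680 (edgeR adjusted p = 0.0308), and NRT2.6 was lower by 2.21-fold (log2 -1.14 ± 0.246, edgeR adjusted p = 0.00544). These were 4 of 9 members, 3 higher and 1 lower, against 7.95% of all genes called in this comparison (3.63% higher and 4.32% lower). Their libraries did not overlap with those of Col-0. Neither did those of NIA2, NRT2.7 and NLP8, which makes 7 of 9 members against 32.7% of all genes.

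Of the members not called in imbibed mkk3-1, NIA2 had a log2 fold change of 0.83 (95% interval 0.20 to 1.46, edgeR adjusted p = 0.0835) and NRT2.7 of 0.23 (0.0061 to 0.46, edgeR adjusted p = 0.197). NIA2 passed without the low-count filter (edgeR adjusted p = 0.0196), on the compared libraries alone (0.0327) and without replicate 1 of imbibed mkk3-1 (0.0469), and its log2 fold change ran from 0.33 to 1.06 over the alternatives. NRT2.7 passed on the compared libraries alone (0.0300), where 6 members were called, 5 higher and 1 lower. NLP8 was at 0.15 (-0.039 to 0.34), NRT1.1 at -0.13 (-0.33 to 0.063) and NLP6 at 0.023 (-0.33 to 0.38). The NIA1 and NIR1 calls held in 13 of 13 alternative settings, with ranges of 0.56 to 0.76 and 0.84 to 1.11. NLP7 lost its call when any of 5 libraries was left out (edgeR adjusted p = 0.0685 to 0.139), and NRT2.6 lost it without replicate 3 of imbibed Col-0 (-0.96, edgeR adjusted p = 0.0501).

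Markers of other seed tissues also differed in this comparison. The 3 endosperm markers summed to 2992 to 3369 CPM in imbibed mkk3-1 and 5147 to 6976 CPM in imbibed Col-0, with EPR1 at -0.95 and MAN7 at -0.78 on the log2 scale. The sum was made up mostly of EPR1. In dry seeds they summed to 11377 to 12840 CPM in mkk3-1 and 17530 to 24111 CPM in Col-0. The 5 green tissue markers summed to 85.3 to 99.8 CPM in imbibed mkk3-1 and 105 to 126 CPM in imbibed Col-0, with RBCS3B lower (-1.06). No marker was at 0 in all libraries of a group, and the part of these tissues in the result was not tested.

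In imbibed mpk7_ko3, NRT2.6 was lower and the transcription factor genes NLP7 and NLP8 were higher than in Col-0. NRT2.6 was lower by 2.46-fold (log2 -1.30 ± 0.248, edgeR adjusted p = 0.00215). NLP7 was higher by a log2 of 0.37 ± 0.0678 (1.3-fold, edgeR adjusted p = 0.00149) and NLP8 by 0.28 ± 0.0871 (1.22-fold, edgeR adjusted p = 0.0449). These were 3 of 9 members, 2 higher and 1 lower, against 9.84% of all genes called (5.12% higher and 4.72% lower), and the libraries of these 3 genes did not overlap with Col-0, as for 31.0% of all genes. NIR1 had a log2 fold change of 0.33 (95% interval 0.050 to 0.62, edgeR adjusted p = 0.116) and NIA1 of 0.19 (-0.062 to 0.45, edgeR adjusted p = 0.340).

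NRT2.6 and NLP7 kept their calls in imbibed mpk7_ko3 in 14 of 14 alternative settings, replicate 3 of mpk7_ko3 left out included, with ranges of -1.45 to -1.11 and 0.34 to 0.41. NLP8 lost its call when any of the 6 libraries compared was left out (edgeR adjusted p = 0.0587 to 0.164) and when replicate 3 of mpk7_ko3 was left out in both states (0.0557). NIR1 passed without replicate 1 of imbibed Col-0 (0.50, edgeR adjusted p = 0.0285). The 3 endosperm markers summed to 5805 to 9049 CPM in imbibed mpk7_ko3, a sum made up mostly of EPR1. EPR1 was at 0.28 (edgeR adjusted p = 0.277), MAN7 was lower (-0.79) and EXPA2 was at -1.26 (edgeR adjusted p = 0.243). Of 6 seed storage and oil markers 2 were called higher, CRU2 by 0.78 and OLEO1 by 0.57, and 0 lower. The median of the 6 was 0.057. Their sums overlapped, at 34080 to 49805 CPM in imbibed mpk7_ko3 and 38051 to 39762 CPM in imbibed Col-0. Green tissue markers summed to 56.7 to 73.0 CPM, with RBCS1A lower (-0.84). The part of these markers in the result was not tested. The comparisons of the mutants with Col-0 share the Col-0 libraries.

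**Figure D4:**
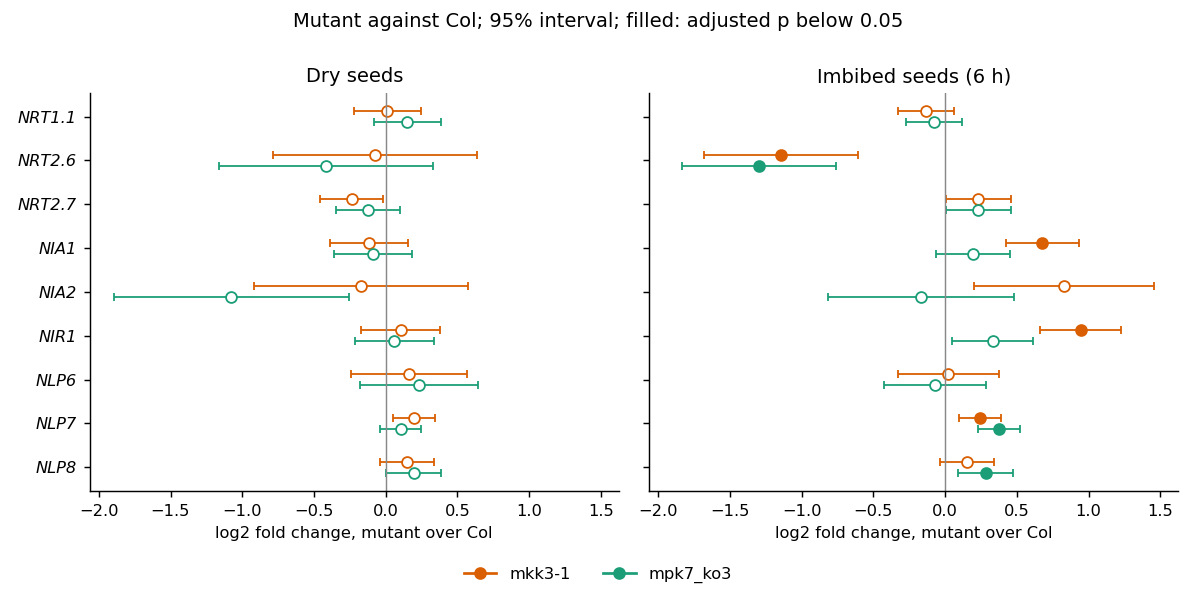
Log2 fold change of each mutant over Col-0 (x axis) for the 9 tested genes (y axis), in dry seeds (left) and imbibed seeds (right); bars are 95% intervals from the standard error with 12 degrees of freedom, and filled points have an edgeR adjusted p below 0.05. In dry seeds no point is filled, and in imbibed seeds NRT2.6 is lower and NLP7 higher in both mutants while NIA1 and NIR1 are filled for mkk3-1.

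Between the mutants, NIR1 was the member that passed the test in imbibed seeds. It was higher in mkk3-1 than in mpk7_ko3 by a log2 of 0.61 ± 0.128 (edgeR adjusted p = 0.0392), 1 of 9 members against 0.338% of all genes. This call was lost without any of 5 of the 6 libraries compared (edgeR adjusted p = 0.106 to 0.153) and was kept without replicate 3 of mpk7_ko3. NIA1 had a log2 fold change of 0.48 (95% interval 0.23 to 0.74, edgeR adjusted p = 0.0774), and passed with DESeq2 (adjusted p = 0.0126). NIA2 was at 1.00 (0.37 to 1.63, edgeR adjusted p = 0.148). NRT2.6 was at 0.15 (-0.40 to 0.71) and NLP7 at -0.13 (-0.28 to 0.014). In dry seeds edgeR called 0 of 9 members between the mutants (1.21% of all genes), 1 had an unadjusted p below 0.05, and DESeq2 called 0.

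The imbibition response itself was then compared between genotypes by an interaction term. For mkk3-1 against Col-0, edgeR called 0 of 9 members (0.124% of all genes), 5 had an unadjusted p below 0.05, and DESeq2 called 2. These 2 genes were NIA1 and NIR1. NIA1 rose more in mkk3-1 by a log2 of 0.79 ± 0.171 (edgeR adjusted p = 0.0596, DESeq2 adjusted p = 0.00230). NIR1 fell less by 0.84 ± 0.180 (edgeR adjusted p = 0.0596, DESeq2 adjusted p = 0.00254). Over 19 alternatives, the values ran from 0.68 to 0.92 and from 0.73 to 1.01, and each passed in 4. NRT2.6 had a difference of -1.07 (95% interval -1.96 to -0.18, edgeR adjusted p = 0.416) and NRT2.7 of 0.47 (0.15 to 0.79, edgeR adjusted p = 0.257).

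For the response of mpk7_ko3 against Col-0, edgeR called 0 of 9 members (0.00563% of all genes), 3 had an unadjusted p below 0.05, and DESeq2 called 0. NLP7 had a difference of 0.27 (95% interval 0.064 to 0.48, edgeR adjusted p = 0.476), NRT2.7 of 0.35 (0.038 to 0.67, edgeR adjusted p = 0.557) and NRT2.6 of -0.88 (-1.80 to 0.040, edgeR adjusted p = 0.652). The interval of NRT2.6 includes 0 beside an unadjusted p of 0.0499 because intervals were computed with the 12 residual degrees of freedom and the edgeR test uses more. NIA1 was at 0.28 (-0.088 to 0.66) and NIR1 at 0.27 (-0.12 to 0.67).

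Around the 10 genes, 67 further loci of nitrate transport, assimilation, cofactors and regulation were listed, and 53 were tested. These loci too were chosen with earlier results of these data known. In imbibed against dry Col-0, 43 of the 53 were called, 15 higher and 28 lower (20 and 20 with library totals), where 74.9% of all genes were called, 38.8% higher and 36.1% lower. They had a median log2 change of -0.39 against 0.064 over all genes. The counts were 18 higher and 27 lower in mkk3-1 and 19 higher and 27 lower in mpk7_ko3 (21 and 17, and 22 and 18, with library totals).

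Of 9 other transport genes tested in Col-0, 2 rose and 5 fell with imbibition, and these 7 of 9, like the counts of the lists that follow, stand beside the 74.9% of all genes called. NRT1.8, a transporter that removes nitrate from the xylem, fell by a log2 of 5.12, from 1395 ± 221 to 40.2 ± 6.23 CPM. The nitrate efflux gene NAXT1 fell by 2.78, and NRT1.5, which loads nitrate into the xylem, fell by 2.62. NRT1.6, known for nitrate supply to the embryo, fell by 2.46, from 0.550 to 0.0956 CPM. It was near the detection limit, with 9, 12 and 5 counts in dry Col-0 libraries and 5, 1 and 1 in imbibed ones. NRT1.8, NRT1.5 and NRT1.6 each overlap an annotated gene on the opposite strand, as do some genes named below. CBL1, named below, and the endosperm marker MAN7 each overlap an annotated gene on their own strand. Strandedness is not given, and the part of these overlaps in the counts was not tested. Per kb, NRT1.8 at 638 CPM exceeded NRT2.7 and all other members in dry Col-0.

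Of 10 other assimilation genes, 3 rose and 3 fell. The asparagine synthetase genes ASN1 and ASN2 changed in opposite directions: ASN1 fell by 2.66, from 826 ± 69.7 to 131 ± 5.88 CPM, and ASN2 rose by 3.24, from 1.06 ± 0.165 to 10.1 ± 1.02 CPM. The glutamate dehydrogenase gene GDH2 fell by 0.95 and the cytosolic glutamine synthetase gene GLN1.1 by 0.77. Among 11 cofactor and reductant genes, 4 rose and 7 fell, and of the molybdenum cofactor genes that nitrate reductase depends on, CNX6 and CNX2 both fell by 1.38, CNX7 fell by 1.25 and CNX3 rose by 1.35.

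Of the 6 other NLP genes, 2 rose (NLP2 by 2.64 and NLP1 by 1.48) and 3 fell (NLP3 by 2.43, NLP9 by 1.68 and NLP5 by 0.57), while NLP4 had a log2 change of -0.019. Of 10 further regulators, 2 rose and 6 fell. BT1 and BT2, BTB-domain proteins that act as repressors of nitrate uptake genes, fell by 4.09 and 3.90, from 4.96 to 0.286 CPM and from 2.52 to 0.164 CPM. HHO2 fell by 1.43 and HHO3 rose by 1.18, both of a family that represses nitrogen starvation genes. Among 7 signalling kinase genes and their calcium sensors, 2 rose and 4 fell, CPK32 by 1.9, CPK30 by 1.51 and the sensor gene CBL1 by 1.37, while CBL9 rose by 0.97.

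CYP707A2, the target of NLP8 in seeds, was not called in any of the 11 comparisons. It was at 64.7 ± 16.2 CPM in dry and 55.3 ± 5.71 CPM in imbibed Col-0. In mkk3-1 it was at 53.2 ± 3.02 and 66.7 ± 2.67 CPM, and in mpk7_ko3 at 67.3 ± 15.4 and 61.3 ± 4.89 CPM. The interaction for mkk3-1 was 0.55 ± 0.214 with an edgeR adjusted p of 0.428.

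In imbibed mkk3-1, 10 of the 53 further genes were higher than in Col-0 and 0 lower (11 and 0 by DESeq2, and 16 and 0 on the compared libraries alone), with a median of 0.15 against -0.016 over all genes. Of all tested genes 3.63% were higher and 4.32% lower. Among them were 3 of 6 other NLP genes, NLP3 (2.33, from 0.408 to 2.08 CPM), NLP4 (0.59) and NLP9 (0.36). The regulators NRG2 and TGA1, both required for nitrate responses in roots, were higher by 0.52 and 0.49. NRT2.5, a high-affinity transporter, and NRT3.1, the partner protein of NRT2 transporters, were higher by 0.67 and 0.37. CPK30, a calcium-dependent kinase of nitrate signalling, was higher by 0.49, the ferredoxin gene FD3 by 0.42 and CNX2 by 0.23. Without replicate 1 of imbibed mkk3-1 4 were called, without replicate 3 of imbibed Col-0 5, without replicate 1 of imbibed Col-0 6, and without any other library of the comparison 7 or 8.

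In imbibed mpk7_ko3, 9 of the 53 were higher than in Col-0 and 1 lower, with a median of 0.069 against -0.0068 over all genes. Of all tested genes 5.12% were higher and 4.72% lower. NLP3 (1.66), NLP4 (0.56), NLP9 (0.40), NRG2 (0.60), TGA1 (0.48), NRT2.5 (0.52) and CPK30 (0.53) were called here as well, in a comparison with the same Col-0 libraries. ASN1 was higher by 0.50 and CPK32 by 0.35, and CNX5 was lower by 0.27. Without replicate 1 or 3 of imbibed Col-0 5 were higher, and without replicate 2 of Col-0 or replicate 1 or 3 of mpk7_ko3 6. None of the 53 was called lower without any of the imbibed Col-0 libraries, without replicate 1 of imbibed mpk7_ko3 or without the low-count filter. In dry seeds 1 of 53 was called in mkk3-1 (CPK32, 0.34), against 2.08% of all genes, and 2 of 53 in mpk7_ko3 (NRG2 at 0.33 and CNX7 at -0.41), against 2.76% of all genes. These calls were fragile: in mkk3-1 none was left without any of 5 of the 6 libraries or with library totals. In mpk7_ko3 no gene was called lower without any of the 6 libraries or with library totals, and none higher without replicate 2 of Col-0 or of mpk7_ko3. Between the mutants edgeR called 0 of 53 in dry and in imbibed seeds, with 12 and 8 at an unadjusted p below 0.05 and 3 and 0 called by DESeq2. For the response to imbibition edgeR called 0 of 53 in mkk3-1 and in mpk7_ko3 against Col-0, with 7 and 6 at an unadjusted p below 0.05 and 2 and 0 called by DESeq2.

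The genes with patterns most like 4 of the members were found by the correlation of log2 CPM over the 18 libraries among 12351 genes. These points share the contrast of dry and imbibed seeds, and the values are a description. NRT1.1 was most like WOX11 (r = 0.994), AT5G27395 (0.993) and NLP1 (0.993). NIA1 was most like the clock gene LHY (0.976), GCS1 (0.975) and PIL5 (0.974), a phytochrome-interacting factor that represses seed germination in the dark. NIR1 was most like MAPKKK13 (0.980), AT4G36010 (0.977) and G6PD2 (0.975), and NLP8 most like CYP71B14 (0.917), AT1G69060 (0.917) and CYP72A14 (0.909).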

How the data were processed

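Total RNA of Arabidopsis seeds was sequenced as paired reads, per the labels' protocols. The deposited values are raw counts for each gene in each library. The submitters' processing notes give the TAIR10 genome and the tools fastp (0.20.0), HISAT2 (2.1.0) for alignment, featureCounts (2.0.1) and DESeq2 (1.34.0). Strandedness, the treatment of multi-mapping reads and the unit counted (reads or fragments) are not given in the sources used here.

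Low-count genes were filtered by filterByExpr at a minimum count of 10, leaving 17758 of 32833 genes. The 15075 left out held 0.0393% of counts. The edgeR 4.0.16 quasi-likelihood model (R 4.3.3) used TMM factors and 1 mean per group over all 18 libraries, with 12 residual degrees of freedom and 11 comparisons. P-values were two-sided and adjusted by Benjamini-Hochberg over all tested genes, with a threshold of 0.05. Each standard error is the size of the log2 fold change divided by the root of F. The 95% intervals use the 12 residual degrees of freedom, fewer than the moderated test, and are wider than the test implies. CPM were scaled by TMM factors, and CPM per kb are CPM divided by the deposited Length, the merged exon length of a gene. A prior count of 2 entered the correlations.

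Results were recomputed with DESeq2 1.42.0, with DESeq2 size factors inside edgeR, with scaling by upper quartiles or by library totals, without the low-count filter, on the compared libraries alone, with replicate number as a block, without mpk7_ko3 replicate 3 in both states, without each library in turn, and at an adjusted p below 0.01. Same-numbered libraries were not shown to be paired, so the model had no block.

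The members, the lists and the tests were chosen with earlier results of these data known. The 10 members were named in every comparison. From each list at most 4 called genes were named by size of change, besides MKK3, MPK7 and CYP707A2, and genes behind a count of 5 or fewer. Sequences came from the TAIR10.1 assembly of RefSeq, whose annotation gave the same start and end for 32532 of 32548 nuclear genes as the table. Of 50443 introns read with the deposited coordinates, 98.4% began with GT and ended with AG. Of 99 listed loci, 93 carried the label used here among their RefSeq names, all 10 members included.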

Additional observations from a re-analysis of the deposited data

How the results depend on the processing

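Of 1449 member values recomputed under the alternatives, 1390 kept their side of the threshold, 27 newly passed it and 29 lost it. A further 3 turned direction with a value past the threshold. Sign changes of values not past it in either fit were counted among the 1390. For example, NRT2.6 in dry mkk3-1 against Col-0 ran from -0.43 to 0.56. The 3 were NLP8 with imbibition under library totals (0.33 in Col-0, 0.29 in mkk3-1 and 0.37 in mpk7_ko3). In imbibed mkk3-1 against Col-0, leaving out a library gave 2 to 4 members called, the lowest without replicate 3 of imbibed Col-0, and a fit of the compared libraries alone gave 6. NLP7 lost its call there also with library totals (adjusted p = 0.0899 in edgeR) and without the low-count filter (0.0628). NLP8 in imbibed mpk7_ko3 lost its call also with library totals (0.125 in edgeR) and upper-quartile factors (0.0536). In dry mpk7_ko3 against Col-0, 1 member was called by DESeq2 and 1 without the low-count filter, NIA2 in both. Between the imbibed mutants 2 members were called by DESeq2 and 2 without replicate 3 of mpk7_ko3 in both states, 3 without the low-count filter and 0 at an adjusted p below 0.01, and leaving out a library gave 0 to 1. For the difference of the imbibition response in mkk3-1, 2 members were called by DESeq2, 2 without the low-count filter and 2 on the compared libraries alone. Leaving out a library gave 0 to 1, with NIR1 called without replicate 1 of imbibed Col-0 (1.01, edgeR adjusted p = 0.0308) and NIA1 without replicate 3 of dry mkk3-1 (0.92, edgeR adjusted p = 0.04997). The cause of these shifts was not tested. With the replicate number as a block, counts of called members were the same in all 11 comparisons, for example 4 in imbibed mkk3-1 and 3 in imbibed mpk7_ko3. The block fitted the same replicate effect for every genotype, so it cannot show what pairing within a genotype would change. Deviations of same-numbered dry and imbibed libraries correlated at 0.0479 to 0.0984 in Col-0, 0.00815 to 0.109 in mkk3-1 and 0.0435 to 0.278 in mpk7_ko3. All 9 were positive, and no genotype had all 3 above 0.1. For libraries of different number the values were -0.0855 to 0.0147 in Col-0, -0.109 to 0.0173 in mkk3-1 and -0.260 to 0.106 in mpk7_ko3. The numbers were not taken as pairs, and a model paired within each genotype was not run. Depth limited NRT2.1 most, and NIA2, NRT2.6 and NLP6 had the widest intervals among the tested members.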
